A study of Mus musculus with 60 samples.

Results

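Benzo(a)pyrene (BaP), a polycyclic aromatic hydrocarbon, was given at 0.1 µM for 120 h to Balb/c 3T3, a fibroblast line made from mouse embryos, and 3 treated arrays were set against 3 arrays of cells kept in 0.75% DMSO for the same time. These 6 arrays, chosen by their titles, belong to a series of 60 arrays with 20 groups of 3. BaP and its controls lie in the set of 30 arrays in which each chemical was given at the concentration the submitters call its IC20, and 0.1 µM is that concentration of BaP at 120 h. All groups share the cell line, the BALB/c background, low-density seeding of 200 cells per dish and treatment at 60 to 65% confluence. The groups tested beside these 6 arrays were 3-methylcholanthrene (MCA) at 0.1 µM for 120 h and BaP at 1.5 µM for 24 h. From the other set, BaP at 0.5 µM for 120 h was tested too, and each group had DMSO controls. MCA and BaP at 0.1 µM for 120 h have the same 3 controls. The IC20 set also holds AAF and DAT, named in full below. AAF was given at 10 µM for 24 h and 120 h, and DAT at 700 µM for 24 h and 0.2 µM for 120 h. It further holds MCA at 20 µM for 24 h. These groups enter the shared fit, the comparison of replicate numbers and the levels of transcripts that fell, with no test of their own. The line is immortal, and the labels do not say whether the replicates were separate cultures, so p-values measure the spread between these arrays only.

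BaP enters cells and binds the aryl hydrocarbon (Ah) receptor, which moves to the nucleus, pairs with Arnt and binds short DNA elements with the core GCGTG. Among its targets are the cytochromes P450 Cyp1a1 and Cyp1b1, which oxidise BaP itself, in part to diol epoxides that form adducts with DNA. Adducts can stall replication and activate p53, and in Balb/c 3T3 cultures hydrocarbons of this kind are used to produce transformed foci.

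The 6 arrays correlated at 0.974 to 0.988 with each other over the genes tested. Replicate 3 arrays of all 5 groups at 120 h stood together, and their deviations from the group means correlated at 0.485 to 0.65. Counts are also given without replicate 3 of every group, an alternative chosen after seeing the data. The 3′ to 5′ log2 ratio of the actin control probe sets, a sign of RNA quality, was 0.543 ± 0.177 (SD, n = 3) with BaP and 0.537 ± 0.121 in DMSO. That of Gapdh was -0.391 ± 0.137 and -0.463 ± 0.080. Of 14 fibroblast markers, 12 lay above the array median in all 6 arrays, and their summed intensity was 167100 to 180600 with BaP and 167100 to 181900 in DMSO. Endothelial markers were above the median in 0 of 10 cases, epithelial markers in 1 of 12 and macrophage markers in 3 of 12 (Csf1r, Cd14 and Lyz2), while Ptprc, which all leukocytes carry, was at 5.33 to 10.5 with BaP and 2.70 to 8.09 in DMSO.

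In the main fit 1.60% of genes tested differed with BaP, and Cyp1a1 and Cyp1b1, which oxidise it, had the smallest p-values. Of 11384 genes tested, 182 (1.60%) differed at an adjusted p under 0.05, of which 120 (1.05%) rose and 62 (0.545%) fell. The 3 treated and 3 control arrays did not overlap for 180 of the 182, and for 15.2% of all genes tested. The same arrays made the calls, so this lack of overlap adds no support to them. The change was 2-fold or more for 15 genes that rose and 13 that fell. Atoh8, a transcription factor, passed at 1.59 ± 0.40 (adjusted p = 0.0394), but its arrays overlapped, at 20.9, 81.1 and 155 in DMSO and 245, 146 and 382 with BaP. At an unadjusted p under 0.05 there were 1353 of the 11384 genes. Counts in the gene lists below are to be read against these shares. Leaving out BaP replicate 1 lowered the 182 to 94, BaP replicate 3 to 121 and DMSO replicate 2 to 106, and leaving out replicate 3 of every group lowered it to 65. The plot of all genes shows Cyp1a1 far from every other gene on the rising side and AF067061 on the falling side. In RNA from whole cultures, a change in the share of cells that carry a transcript and a change in its amount per cell cannot be told apart.

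**Figure D1:**
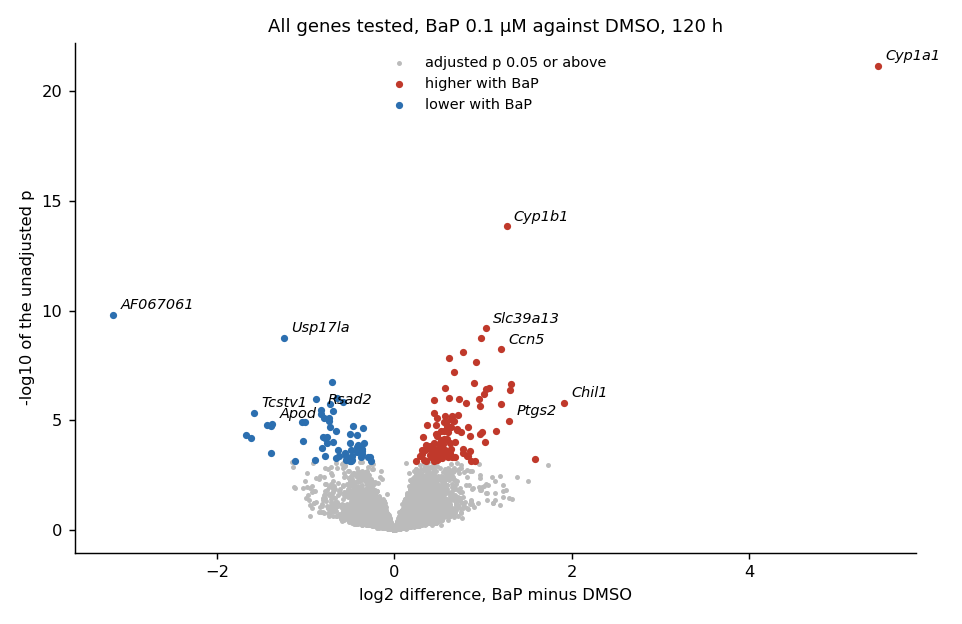
Each point is 1 of 11384 genes, with the log2 difference between BaP 0.1 µM and DMSO at 120 h on the x axis and -log10 of the unadjusted p on the y axis. Red and blue points are the 120 genes that rose and the 62 that fell at an adjusted p under 0.05. Cyp1a1 stands at 5.45 and AF067061 at -3.17.

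3 promoters of genes that rose are shown because each holds the receptor's core motif GCGTG. The capitals mark the match, which reads CACGC where it lies on the opposite strand. Each stretch is the 250 bases upstream of the start in RefSeq's GRCm38.p6 annotation, written 5′ to 3′ in the direction of the gene. Cyp1a1 lies at chr9:57697363-57697612, plus strand, with its match 54 to 50 bases before the start. Cyp1b1 lies at chr17:79715062-79715311, minus strand, with its match at 76 to 72 bases. Ptgs2 lies at chr1:150099781-150100030, plus strand, with its match at 98 to 94 bases.
Cyp1a1: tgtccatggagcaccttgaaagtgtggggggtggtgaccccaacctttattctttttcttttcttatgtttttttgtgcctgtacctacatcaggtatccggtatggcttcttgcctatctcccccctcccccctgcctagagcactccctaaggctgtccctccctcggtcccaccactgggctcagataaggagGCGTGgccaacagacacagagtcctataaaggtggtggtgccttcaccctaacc
Cyp1b1: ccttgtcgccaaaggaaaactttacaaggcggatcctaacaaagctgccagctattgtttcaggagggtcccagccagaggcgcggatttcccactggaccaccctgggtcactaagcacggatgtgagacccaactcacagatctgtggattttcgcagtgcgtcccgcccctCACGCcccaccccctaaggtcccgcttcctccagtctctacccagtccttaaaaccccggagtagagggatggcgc
Ptgs2: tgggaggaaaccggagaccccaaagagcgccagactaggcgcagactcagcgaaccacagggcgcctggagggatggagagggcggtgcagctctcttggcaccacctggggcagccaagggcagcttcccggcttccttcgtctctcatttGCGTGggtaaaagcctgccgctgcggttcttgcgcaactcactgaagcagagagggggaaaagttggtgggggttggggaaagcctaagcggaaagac
Searched on both strands, GCGTG occurred in 30.9% of 27025 promoters of this length and in 50.4% of the promoters of genes tested. It occurred in 45 of the 95 promoters of genes that rose (47.4%) and in 21 of the 43 of genes that fell (48.8%). The shares in genes that rose and fell were both close to that of all genes tested.

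All 5 tested genes of the Ah receptor battery, the set of enzymes and regulators that the receptor switches on in many tissues, were higher in every BaP array than in every DMSO array, against 10.7% of all genes. 3 of the 5 rose at the threshold, with a list median of 0.64 on the log2 scale, against 0.05 over all genes. Cyp1a1 read 29.3, 41.8 and 54.3 normalised intensity units in DMSO and 2497, 2088 and 2909 with BaP. The groups were far apart, with all controls below the array median of 74.8. The log2 difference was 5.45 ± 0.17 (SE, adjusted p = 7.77e-18). Cyp1b1, which metabolises hydrocarbons in cells of mesenchymal origin, was already bright at 6328, 6423 and 5540 in DMSO and reached 14257, 15714 and 14088 with BaP. Its difference was 1.27 ± 0.08 (adjusted p = 7.86e-11), and other probe sets gave 1.13 and, for a dim one, -0.02. Both kept their calls without any 1 of the 6 arrays.

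Nqo1, a quinone reductase that both the Ah receptor and Nrf2 can induce, rose from 477, 366 and 379 to 536, 733 and 665. The highest control and the lowest treated array were close together, and the difference was 0.64 ± 0.12 (adjusted p = 0.00239). Without replicate 3 of every group the difference was 0.57 (adjusted p = 0.132). Tiparp, a poly(ADP-ribose) polymerase that restrains the receptor, read 3288, 3225 and 2735 in DMSO and 4616, 3602 and 4666 with BaP. Its brightest probe set missed the threshold at 0.47 ± 0.14 (adjusted p = 0.0913). In a separate limma fit of all probe sets, that set had adjusted p = 0.245. There another set passed at 0.65 ± 0.09 (adjusted p = 0.000333), and a dimmer one did not at 0.58 ± 0.14 (adjusted p = 0.0931). Aldh3a1, an aldehyde dehydrogenase, was dim, at 27.3, 34.8 and 48.9 in DMSO and 55.0, 54.5 and 61.7 with BaP, and did not pass (0.48 ± 0.27, adjusted p = 0.522). Cyp1a2 and the receptor's repressor Ahrr lay below the filter on dim genes, and Ugt1a6a was not analysed here.

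Transcripts of the receptor and its partners did not pass the test in any of 5 cases (1 of 5, Hsp90aa1, had an unadjusted p under 0.05 in limma). Ahr was at 1813, 1963 and 1756 in DMSO and 1747, 1957 and 1571 with BaP, overlapping groups with a difference of -0.07 ± 0.12. Arnt, the receptor's dimerisation partner, differed by -0.32 ± 0.20, Arnt2 by -0.22 ± 0.13, and Src, a kinase bound to the resting receptor, by 0.32 ± 0.34. Hsp90aa1, a chaperone of the receptor, differed by -0.19 ± 0.08.

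**Figure D2:**
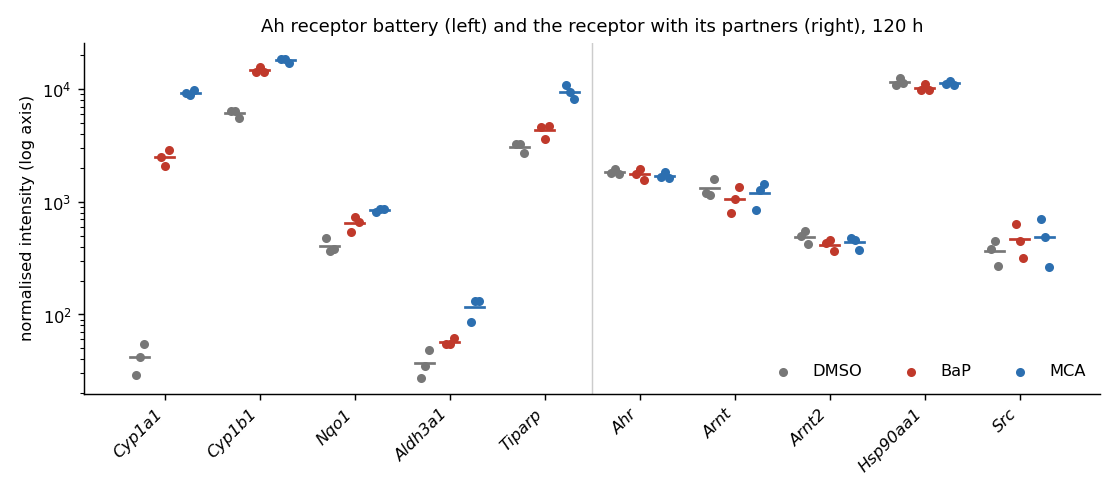
Normalised intensity on a log axis of the 5 tested battery genes and of 5 receptor and partner genes, with 1 point per array and a line at the mean of the 3 arrays of each group (DMSO, BaP 0.1 µM, MCA 0.1 µM, all 120 h). In the battery every BaP array lies above every DMSO array and below every MCA array, and Cyp1a1 spans the widest range, from 29.3 to 9718.

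The other genes among the 14 largest rises without overlap of the groups were of several kinds. Chil1, a secreted chitinase-like glycoprotein of inflamed and remodelling tissue, went from 49.9, 36.1 and 61.1 to 223, 187 and 278. Its groups did not overlap and it rose by 1.92 ± 0.31 (adjusted p = 0.000675). Ptgs2, the inducible cyclooxygenase that makes prostaglandin precursors, read 175, 178 and 157 in DMSO and 552, 417 and 373 with BaP. The lowest treated array was above 2 times the highest control, the rise was 1.30 ± 0.24 (adjusted p = 0.00267), and a second probe set gave 1.36. Gpc1, a heparan sulfate proteoglycan of the cell surface, moved from 1951, 1893 and 1389 to 5387, 3388 and 4307, a rise of 1.30 ± 0.19 with no overlap. Asic1, an acid-sensing ion channel, moved from 256, 233 and 213 to 725, 636 and 473, a rise of 1.31 ± 0.19.

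Slc39a13, a zinc transporter needed by connective tissue, and Ccn5, a matricellular protein of the CCN family, rose with little spread among arrays. Slc39a13 read 657, 771 and 651 in DMSO and 1532, 1375 and 1382 with BaP, a rise of 1.03 ± 0.11 (adjusted p = 1.88e-06). Ccn5 read 232, 258 and 270 and then 594, 635 and 583, a rise of 1.21 ± 0.14 (adjusted p = 9.24e-06). Both kept their calls under each of 20 alternative settings, as did Chil1, Asic1, Gpc1, Ptgs2 and Pla2g7. Pla2g7, which hydrolyses platelet-activating factor, rose by 1.06 ± 0.16, from 743, 859 and 1008 to 1752, 1748 and 1979. Osgin1, an oxidative stress induced growth inhibitor, went from 55.4, 61.6 and 55.2 to 171, 163 and 114 (1.15 ± 0.23). Cytip, a scaffold of leukocyte adhesion signalling, went from 40.1, 32.8 and 27.1 to 103, 99.6 and 87.5 (1.20 ± 0.19), so both crossed the array median. Kcnk5, a background potassium channel, rose by 1.04 ± 0.15, and Ier3, an immediate early gene tied to stress and survival, by 1.01 ± 0.15. Ppp1r12b, a regulatory subunit of myosin phosphatase, rose by 1.02 ± 0.22 on its brightest probe set only: 3 dimmer sets gave -0.51, 0.38 and -0.80, and the call was lost without BaP replicate 1 (0.99, adjusted p = 0.0606), BaP replicate 2 (0.97, adjusted p = 0.0575) or DMSO replicate 3 (0.88, adjusted p = 0.0783).

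**Figure D3:**
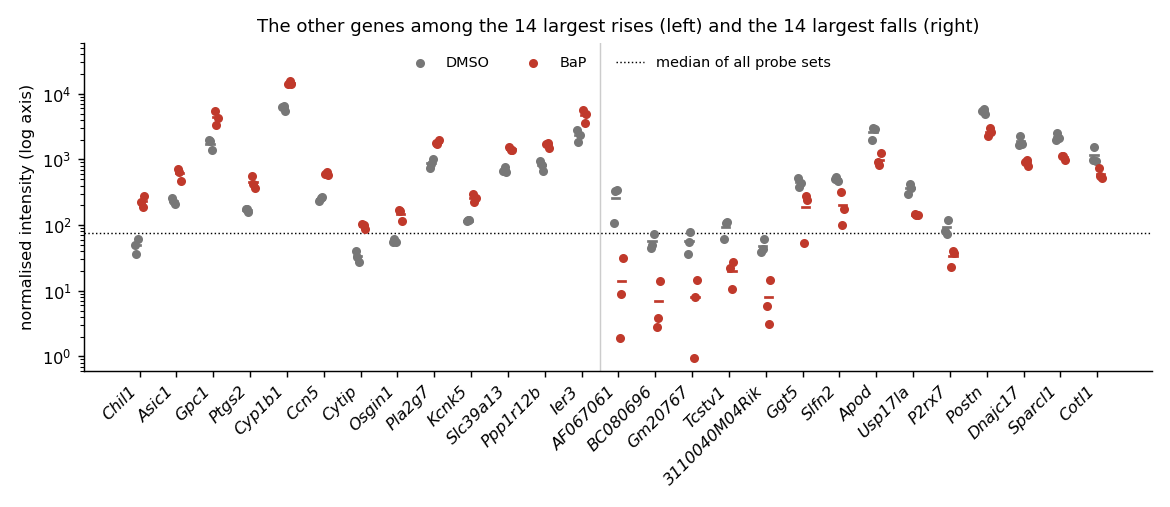
Normalised intensity on a log axis of the genes with the largest rises, Cyp1a1 left out, among those whose groups did not overlap (left) and of the 14 genes with the largest falls (right), with 1 point per array, with a line at each mean and a dotted line at the array median of 74.8. Atoh8, a transcription factor with a larger rise (1.59) than all but Chil1 here, is not shown because its groups overlap. AF067061, BC080696, Gm20767, Tcstv1 and 3110040M04Rik have every treated array below the median.

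The largest falls were in little-characterised transcripts, some of them known from the early embryo. AF067061 read 107, 326 and 344 in DMSO and 1.88, 8.81 and 31.1 with BaP. The treated arrays were near background, the groups did not overlap and it fell by 3.17 on the log2 scale (-3.17 ± 0.31, adjusted p = 5.81e-07), a size that the added 16 understates. Tcstv1, named for its variable expression in the early cleavage embryo, fell from 60.4, 107 and 111 to 22.6, 10.8 and 27.5 (-1.58 ± 0.27, adjusted p = 0.00153). Gm20767 fell from 36.9, 54.9 and 79.8 to 0.935, 8.08 and 14.7 (-1.61 ± 0.34). These 3 genes lie near each other on chromosome 13 in RefSeq, and the probe set of AF067061 is of the kind its maker marks as able to bind other transcripts, so they may read related sequences in part.

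The treated arrays of BC080696, 3110040M04Rik and Gm20767 were near background, so the size of their falls depends on the constant added before the logarithm: with 1 and 64 in place of 16 it was -3.10 and -0.76 for BC080696, -2.66 and -0.64 for 3110040M04Rik and -3.09 and -0.74 for Gm20767. BC080696 fell by 1.67 on the log2 scale, from 45.4, 50.2 and 73.3 to 2.81, 3.88 and 14.3. The uncharacterised 3110040M04Rik fell from 39.2, 43.7 and 62.2 to 5.93, 3.15 and 14.8 (-1.44 ± 0.27). Usp17la, a deubiquitinating enzyme of a multicopy family, had treated arrays close together, at 148, 142 and 140 against 302, 424 and 365 (-1.24 ± 0.14, adjusted p = 3.59e-06). BC080696 and Gm20767 lost the call without BaP replicate 1 (-1.54 and -1.39, adjusted p = 0.0549 and 0.0823) or DMSO replicate 3 (-1.51 and -1.40, adjusted p = 0.0535 and 0.0691). AF067061, Tcstv1, Usp17la and 3110040M04Rik kept it without any 1 of the 6 arrays.

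The level of these transcripts differed between times as well as treatments. In DMSO controls of the same set, AF067061 had a mean of 647 at 24 h and 259 at 120 h, Tcstv1 291 and 92.8, and Usp17la 950 and 364. At 120 h the mean of AF067061 was 5.40 with MCA, 13.9 with BaP, 63.5 with AAF (2-acetylaminofluorene, 10 µM) and 155 with DAT (2,4-diaminotoluene, 0.2 µM). The BaP and MCA ranges were 1.88 to 31.1 and 4.88 to 6.36 and overlapped. At 24 h it stayed at 594 with 1.5 µM BaP, where the controls were at 595 to 739. DAT at 700 µM for 24 h gave 68.1. Between BaP and MCA at 120 h, AF067061 differed by 0.36 on the log2 scale in the main fit and did not pass. The others are levels set side by side. Apart from BaP against its controls and against MCA at 120 h, no test of their differences is given here.

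**Figure D4:**
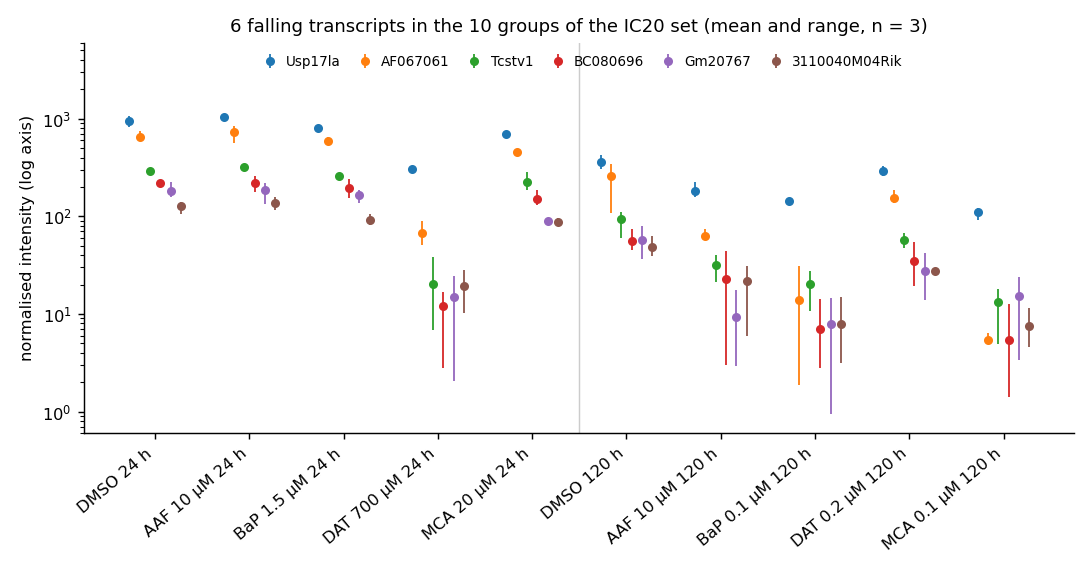
Mean normalised intensity (points) with the range over 3 arrays (bars) on a log axis for 6 transcripts that fell with BaP at 120 h, in each of the 10 groups of the IC20 set. At 24 h the 4 groups other than DAT 700 µM sit high, and at 120 h the BaP and MCA groups sit lowest for all but Gm20767.

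Postn, the matricellular protein periostin, read 5498, 5785 and 4894 in DMSO and 2237, 3035 and 2595 with BaP. The groups were well apart and it fell by 1.04 on the log2 scale (-1.04 ± 0.19, adjusted p = 0.00279). Apod, a lipid-binding lipocalin that accumulates in resting fibroblasts, fell from 1965, 2978 and 2925 to 923, 828 and 1238 (-1.38 ± 0.26, adjusted p = 0.00317). A dim second probe set of Apod gave -0.17 ± 0.50, and the call was lost with the mean of all probe sets. Sparcl1, another matricellular protein, fell from 2001, 2484 and 2108 to 1113, 1136 and 991 (-1.01 ± 0.19). Of 35 tested extracellular matrix genes, Postn and Fbln1, a fibulin, fell (-0.55 ± 0.13 for Fbln1) and Thbs1, the matrix glycoprotein thrombospondin 1, rose (0.49 ± 0.12), with a list median of -0.01. Of all genes 0.545% fell and 1.05% rose. Other probe sets of Fbln1 gave 0.08 ± 0.26 and, for a dim one, -0.18 ± 0.48. Fbln1 and Thbs1 kept their calls when DMSO replicate 1 was left out and lost them without any other 1 of the 6 arrays, at adjusted p up to 0.148 and 0.232. Both also lost them with the mean of all probe sets.

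Slfn2, a schlafen that keeps lymphocytes quiescent in mice, fell by 1.39 on the log2 scale, from 496, 532 and 463 to 324, 99.1 and 176. Ggt5, a gamma-glutamyl transferase that acts on leukotrienes, read 517, 385 and 436 in DMSO and 53.8, 276 and 245 with BaP. The first treated array of Ggt5 was far below the others, and without it the difference was -0.73 (adjusted p = 0.211) instead of -1.39 ± 0.34. It also lost the call without DMSO replicate 1, 2 or 3 (-1.28, -1.49 and -1.40, adjusted p = 0.114, 0.0618 and 0.0738). Dimmer probe sets of Ggt5 gave -0.44 ± 0.30 and -0.22 ± 0.34, and the call was lost with the mean of all probe sets. P2rx7, an ATP-gated channel, passed at -1.12 ± 0.29 (adjusted p = 0.0459) and lost the call without any 1 of the 6 arrays (-1.25 to -0.94, adjusted p up to 0.245). Cotl1, an actin-binding protein, passed at -0.89 ± 0.23 and lost the call without BaP replicate 2 or 3 or DMSO replicate 1 or 2 (adjusted p up to 0.291). Dnajc17, a J-domain protein, passed at -1.03 ± 0.22 on 1 bright probe set, while 2 dim ones gave 0.58 and 0.23, and without BaP replicate 3 or DMSO replicate 2 its adjusted p was 0.0727 and 0.102.

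Interferon-stimulated genes, here a list of antiviral effectors, regulators and antigen-processing genes, tended to be lower with BaP. Of 25 tested, 15 had every BaP array below every DMSO array, against 4.53% of all genes, and 4 fell at the threshold while none rose. Of all genes 0.545% fell and 1.05% rose at the threshold. At an unadjusted p under 0.05, limma had 14 lower and 2 higher, and the list median was -0.38. Over all genes 1353 of 11384 had such an unadjusted p in either direction. Rsad2, the antiviral enzyme viperin, read 1207, 1135 and 991 in DMSO and 556, 617 and 681 with BaP. Its groups were apart, it fell by 0.83 on the log2 scale (-0.83 ± 0.14, adjusted p = 0.00119), and 2 dimmer probe sets gave -1.14 and -0.76. Oas1a, an oligoadenylate synthetase, fell from 2432, 2930 and 3494 to 1750, 1618 and 1885 (-0.74 ± 0.13, adjusted p = 0.00275). Usp18, which removes Isg15 from proteins and damps interferon signalling, fell from 6452, 7913 and 7150 to 4751, 4668 and 4974 (-0.57 ± 0.09, adjusted p = 0.000675). Oasl2, a relative of the synthetases, passed at -0.49 ± 0.10 and lost the call without DMSO replicate 2 (-0.39, adjusted p = 0.0847). Ifit1, which binds viral RNA, and Mx1, an antiviral GTPase, differed by -0.58 ± 0.16 and -0.57 ± 0.15 and missed the threshold, as did Irf1 (0.31 ± 0.13) and Gbp2 (0.21 ± 0.07) on the higher side.

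3 interferon-stimulated promoters are shown because they hold the interferon repeat, GAAA followed by any 2 bases and GAAA again, the pattern that interferon regulatory factors recognise. The capitals mark it, and it reads TTTC, any 2 bases and TTTC where it lies on the opposite strand. The stretches are again the 250 bases before the start in GRCm38.p6. Rsad2 lies at chr12:26456453-26456702, minus strand, with its match 120 to 111 bases before the start. Oas1a lies at chr5:120907526-120907775, minus strand, with overlapping matches at 20 to 11 and at 14 to 5 bases. Ifit1 lies at chr19:34640639-34640888, plus strand, with matches at 104 to 95 and at 85 to 76 bases.
Rsad2: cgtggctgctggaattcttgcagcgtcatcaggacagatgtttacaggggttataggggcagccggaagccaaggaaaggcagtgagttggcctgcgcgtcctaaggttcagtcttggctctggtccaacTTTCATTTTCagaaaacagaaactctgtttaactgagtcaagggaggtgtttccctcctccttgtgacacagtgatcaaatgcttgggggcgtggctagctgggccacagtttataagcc
Oas1a: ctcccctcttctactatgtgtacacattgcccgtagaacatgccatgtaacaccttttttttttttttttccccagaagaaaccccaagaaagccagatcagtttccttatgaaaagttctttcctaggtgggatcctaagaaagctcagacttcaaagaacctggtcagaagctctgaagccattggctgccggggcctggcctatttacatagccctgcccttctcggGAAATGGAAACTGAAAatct
Ifit1: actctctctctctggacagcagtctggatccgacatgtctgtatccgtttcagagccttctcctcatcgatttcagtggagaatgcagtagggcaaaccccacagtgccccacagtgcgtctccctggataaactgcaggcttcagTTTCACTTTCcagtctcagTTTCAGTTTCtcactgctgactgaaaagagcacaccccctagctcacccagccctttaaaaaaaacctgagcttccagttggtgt
The motif was found in 9 of the 20 interferon list promoters that had a window (45%), in 3.46% of all promoters and in 3.10% of those of genes tested. Among promoters of genes that fell it was in 5 of 43 (11.6%), and of genes that rose in 3 of 95 (3.16%). A match names letters in the window and not a factor at work there.

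**Figure D5:**
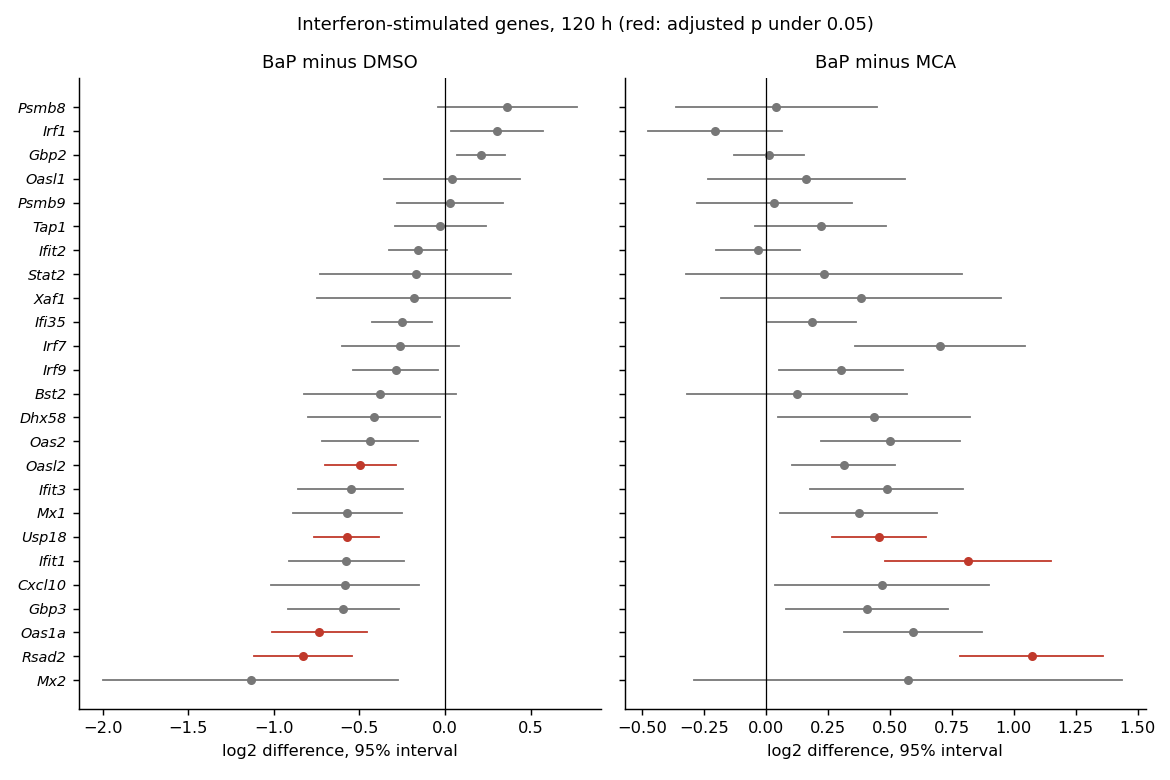
Log2 difference with its 95% interval for the 25 tested interferon-stimulated genes, BaP minus DMSO on the left and BaP minus MCA on the right, all at 120 h. Red marks an adjusted p under 0.05. On the left 20 of 25 points lie below 0, and on the right 23 lie above it.

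Inflammatory genes went both ways. Of 19 tested, 4 rose and 1 fell, against 1.05% and 0.545% of all genes, with a list median of 0.23. Besides Chil1 and Ptgs2, the chemokine Ccl8 rose from 444, 454 and 533 to 677, 674 and 659 (0.48 ± 0.10, adjusted p = 0.00668), and the neutrophil chemokine Cxcl5 by 0.36 ± 0.09 (adjusted p = 0.0487), a call lost without any 1 of the 6 arrays (0.32 to 0.39, adjusted p up to 0.19). Ccl5, a T cell chemokine that interferon also induces, fell from 1658, 1304 and 1515 to 900, 870 and 898 (-0.73 ± 0.12, adjusted p = 0.000707). The treated arrays of Ccl5 and Ccl8 were each within a narrow range and clear of the controls. Il6 read a difference of 0.68 ± 0.25 and did not pass (adjusted p = 0.236). Without replicate 3 of every group, 2 of this list rose and none fell, and Ccl5 was at -0.72 (adjusted p = 0.0552). The summed macrophage markers were 1362 to 1592 with BaP and 1219 to 1456 in DMSO, with Ptprc near 0, and their part in the result was not tested.

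Genes of p53 and DNA repair did not pass at this concentration and time. None of 29 p53 targets and none of 33 repair genes was called in limma, with 3 and 4 at an unadjusted p under 0.05 and medians of 0.02 in both lists. Over all genes 1.60% were called and 1353 of 11384 had such an unadjusted p. Both lists were near these shares, so the counts do not set them apart from other genes. Cdkn1a, the p53-induced inhibitor of cell cycle kinases, read 2645, 2218 and 1881 in DMSO and 2712, 2288 and 1941 with BaP. The groups overlapped almost fully, and the difference of 0.04 ± 0.23 has a 95% interval of -0.42 to 0.51. Mdm2, the ligase that degrades p53 and is itself a p53 target, was bright, at 26809 to 27625 in DMSO and 27008 to 28473 with BaP, an interval of -0.09 to 0.12. The highest deposited intensities of the DMSO arrays were 31493 to 40317. Whether a rise of Mdm2 could still show so near the top was not tested. Plk3, the p53 target with the largest difference, was dim and scattered (0.56 ± 0.51). Ung, a uracil glycosylase of base excision repair, was lower in every BaP array but missed the threshold (-0.58 ± 0.15, adjusted p = 0.0549). Trp53 itself was not analysed here.

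2 mitotic genes and no replication gene passed, both lower. Of 30 mitotic genes, 26 were below 0, with a median of -0.20. Cdc20, the activator of the anaphase-promoting complex, read 2135, 3511 and 3874 in DMSO and 1932, 1686 and 1804 with BaP. The first control was near the treated arrays, and the difference was -0.76 ± 0.16 (adjusted p = 0.00781). Cdc20 lost the call without DMSO replicate 2 (-0.67, adjusted p = 0.0738) or DMSO replicate 3 (-0.60, adjusted p = 0.0751). A second bright probe set of Cdc20 gave -0.37 ± 0.15 and a dimmer one -0.91 ± 0.47. Cenpe, a kinetochore motor, was at 707, 772 and 936 and then 526, 592 and 597 (-0.47 ± 0.12), a call that held without DMSO replicate 1 and was lost without any other 1 array (adjusted p up to 0.191). Cdc20 and Cenpe also lost the call with the mean of all probe sets. The list median was -0.04 without DMSO replicate 3 and -0.33 without DMSO replicate 1. Of 33 replication genes none was called in limma and 5 had an unadjusted p under 0.05, with a median of -0.14. Over all genes 1.60% were called and 1353 of 11384 had such an unadjusted p.

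Of the conjugation list 3 of 18 genes rose and of the redox defence list 2 of 26, against 1.05% of all genes. Of 18 tested conjugation genes, Mgst2, a microsomal glutathione transferase, rose by 0.57 ± 0.14, and the cytosolic transferases Gstm1 and Gstm2 by 0.37 ± 0.09 and 0.25 ± 0.06. None was called lower, and the list median was 0.11. The mu-class transferases are close in sequence, so their probe sets may read each other. All 3 kept the call without BaP replicate 2 and lost it without any other 1 array, at adjusted p up to 0.134, 0.098 and 0.203. Of 26 Nrf2 and oxidative stress genes, Osgin1 and Nfe2l2 rose. Nfe2l2, which encodes Nrf2, went from 2280, 2941 and 2515 to 3138, 3892 and 3320 (0.42 ± 0.10, adjusted p = 0.0343), and lost the call without BaP replicate 2 or 3 or DMSO replicate 1 or 3 (0.33, 0.44, 0.34 and 0.41, adjusted p = 0.187, 0.076, 0.192 and 0.105). A dim second probe set of Nfe2l2 gave -0.01 ± 0.49, and the call was lost with the mean of all probe sets. Hmox1, heme oxygenase, spread from 358 to 2186 among treated arrays and overlapped the controls.

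In the growth arrest list 2 of 25 genes passed and in the insulin-like growth factor list 2 of 11. In the TGF-beta list 1 of 19 passed and in the Wnt and Notch list 1 of 16, against 1.60% of all genes. Gas6, a ligand of the TAM receptors first found in growth-arrested fibroblasts, rose from 167, 147 and 217 to 334, 278 and 382 (0.85 ± 0.20), while Apod in the same list of 25 fell. The call of Gas6 was lost without BaP replicate 1 or 3 or DMSO replicate 1 or 2 (adjusted p up to 0.161). It was also lost with the mean of all probe sets, and a dim second probe set of Gas6 gave -0.38 ± 0.46. In the insulin-like growth factor axis Igfbp4, a secreted binding protein, rose by 0.58 ± 0.13 and Igf2r, the receptor that clears Igf2, fell by 0.79 on the log2 scale (-0.79 ± 0.14) of 11 tested. The other probe set of Igf2r gave -0.18 ± 0.21, and its call was lost with the mean of all probe sets. Lef1, a transcription factor of Wnt signalling, rose from 349, 389 and 403 to 683, 984 and 674 (0.99 ± 0.20) and missed the threshold without BaP replicate 2 (0.81, adjusted p = 0.0575). Smad6, an inhibitor of BMP signalling, rose by 0.70 ± 0.14, and did not pass without BaP replicate 1 (0.59, adjusted p = 0.06). Igfbp4 was lost without BaP replicate 1 or 2 or DMSO replicate 3 (adjusted p up to 0.132).

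Acta2, smooth muscle actin, fell by 0.34 on the log2 scale (-0.34 ± 0.08) and was the 1 call among 9 contractile genes, against 1.60% of all genes. The call was lost without BaP replicate 1 (-0.31, adjusted p = 0.0869) or DMSO replicate 2 (-0.31, adjusted p = 0.0888). It was also lost without quantile normalization and with the mean of all probe sets. Dim probe sets of Acta2 gave -0.02 and 0.01. Cyp51, a demethylase of sterol synthesis, was the 1 call among 20 cholesterol genes (-0.37 ± 0.08), again beside 1.60% of all genes. Its call was lost without BaP replicate 1 or DMSO replicate 2 or 3 (adjusted p up to 0.14). Lists of endoplasmic reticulum stress, heat shock, hypoxia and glycolysis, heme, fatty acid and matrix protease genes had no called member. Together with the partner, p53, repair and replication lists they held 200 distinct genes, of which 30 had an unadjusted p under 0.05 in limma. Over all genes that number was 1353 of 11384. The summed adipocyte markers were 10010 to 12850 with BaP and 7216 to 9014 in DMSO, almost all of it Lpl, a lipase of fibroblasts and fat cells (0.51 ± 0.18, adjusted p = 0.212), while Adipoq and Fabp4 were near 0, and the part of adipocyte-like cells in any result was not tested.

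MCA, another polycyclic aromatic hydrocarbon and Ah receptor ligand, was given at the same 0.1 µM for the same 120 h, which allows 1 direct comparison that uses no control array. In the fit without a replicate block 10 genes (0.0878%) differed at the threshold, 6 of them (0.0527%) higher with BaP and 4 (0.0351%) lower. At an unadjusted p under 0.05 there were 344. The rule used counts these 2 groups as paired by replicate number, and with that number as a block 59 genes differed. Differences, SE and adjusted p-values below are from the fit without the block unless the block is named. Cyp1a1 was lower with BaP, at 2497, 2088 and 2909 against 9252, 8899 and 9718 with MCA, a difference of -1.90 ± 0.17 (adjusted p = 3.81e-07). Tiparp was lower too, at 4616, 3602 and 4666 against 10938, 9328 and 8155 (-1.14 ± 0.14, adjusted p = 6.31e-05). All 5 battery genes had every BaP array below every MCA array, against 1.66% of all genes, but Cyp1b1 (-0.30, interval -0.46 to -0.13), Nqo1 (-0.39, interval -0.63 to -0.16) and Aldh3a1 (-0.84, interval -1.40 to -0.28) did not pass over all genes. With the block Cyp1b1 passed (adjusted p = 0.00877), and Nqo1 and Aldh3a1 did not (adjusted p = 0.128 and 0.31).

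Some interferon-stimulated genes were higher with BaP than with MCA. Of the 25, 12 had every BaP array above every MCA array, against 3.70% of all genes, none had the reverse, and 3 passed. In the blocked fit 7 of the 25 passed, all higher with BaP. Rsad2 was at 556, 617 and 681 with BaP and 324, 248 and 286 with MCA (1.07 ± 0.14, adjusted p = 0.000187). Ifit1 was at 2623, 2231 and 2160 against 1292, 1376 and 1287 (0.81 ± 0.16, adjusted p = 0.0461). Usp18 differed by 0.46 ± 0.09 and the chemokine Ccl5 by 0.59 ± 0.12. For these genes the 3 BaP arrays lay between the controls and the MCA arrays, with no overlap on either side. Against the shared controls, 1 of 25 rose and 15 fell with MCA (of all genes 1.52% rose and 1.33% fell, 2.85% together), with a list median of -0.81 beside -0.38 for BaP.

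Of the other differences, Csmd3, a large membrane protein with complement-like domains, was higher with BaP (0.98 ± 0.19), as was Rpl22l1, a paralog of a ribosomal protein (0.53 ± 0.09), and neither differed between BaP and DMSO at the threshold. Efnb1, an ephrin, was lower with BaP than with MCA (-0.76 ± 0.13), as was Adamts4, a protease of aggrecan (-0.73 ± 0.14), which with BaP was itself above the controls (0.63 ± 0.14, adjusted p = 0.0126). With the replicate block and no array left out, all 10 genes passed, Ifit1, Ccl5 and Usp18 at adjusted p = 0.000252, 0.000462 and 0.000831. Arrays were left out only in the fit without the block, where the pairing stays in the spread. There only Cyp1a1, Tiparp and Rsad2 kept the call without any 1 of the 6 arrays. Ifit1, Ccl5 and Usp18 lost it without each of the 6 (adjusted p up to 0.275, 0.189 and 0.312), and Csmd3 without each but BaP replicate 3 (up to 0.309). Rpl22l1 lost it without BaP replicate 3 or MCA replicate 1 or 2 (up to 0.104), Efnb1 without BaP replicate 3 or MCA replicate 1 or 3 (up to 0.105), and Adamts4 without BaP replicate 2 or 3 or MCA replicate 1 or 2 (up to 0.26). The 95% interval of the difference from MCA was -0.99 to 0.27 for Chil1, -0.70 to 0.07 for Asic1 and -0.12 to 0.32 for Slc39a13, all including 0. It was -1.49 to -0.51 for Ptgs2, -1.06 to -0.27 for Gpc1 and -0.82 to -0.25 for Ccn5, all lower with BaP. None of these passed over all genes without the block, and all did with it (adjusted p = 8.59e-05, 0.000182 and 0.0328).

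BaP at other concentrations and times gives values that stand side by side but cannot be compared directly, because dose, time and in part the set of arrays differ. At 1.5 µM for 24 h, 2.72% of genes were called against that time's controls (1.37% higher and 1.35% lower). At 0.5 µM for 120 h in the other set, 29.9% were (15.6% higher and 14.3% lower). Cyp1a1 rose by 5.45 at 0.1 µM for 120 h, 5.10 at 1.5 µM for 24 h and 6.47 at 0.5 µM for 120 h, all on the log2 scale. Cyp1b1 rose by 1.27, 1.43 and 2.27 in that order, Nqo1 by 0.64, 1.85 and 0.97, and Ptgs2 by 1.30, 1.44 and 2.53. Postn differed by -1.04, -0.43 and -2.95, of which the value at 24 h did not pass.

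The p53, mitosis, replication and interferon lists are set beside their values at the other concentrations. Of 29 p53 targets, 0 were called here, 3 rose at 1.5 µM for 24 h and 13 rose and 2 fell at 0.5 µM for 120 h, and Cdkn1a differed by 0.04, 1.01 (adjusted p = 0.0118) and 0.18. The mitosis list had a median of -0.20 here, 0.03 at 1.5 µM for 24 h and 0.87 at 0.5 µM for 120 h, where all 30 genes rose. The replication list had medians of -0.14, 0.10 and 0.58. Interferon-stimulated genes had medians of -0.38, -0.47 and 0.03, and Rsad2 differed by -0.83, -0.65 and 0.75. These differences between doses, times and sets were not tested, and their causes cannot be told apart.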

How the data were processed

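Biotin-labelled RNA from all groups was read on 1 design of single-colour array. Linear intensities of 45101 probe sets on 60 arrays were deposited by the authors. Per the submitters' processing notes GCOS was used, of unstated version, and how background was removed and probe sets were summarised is not given in the sources used here. On deposit the median intensity was 56.3 to 98.9 over the 30 arrays of the IC20 set, and the number of arrays limits the precision. The other set was scaled differently before deposit, so levels were not compared across sets.

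Members, gene lists and comparisons were chosen with earlier results of these data known. Probe sets with 1 gene symbol (34958) were named through the platform's table, updated by gene identifier (204 symbols had no match). Each of 18194 symbols was represented by its brightest probe set and tested where that exceeded the array median in at least 3 of the 30 arrays, leaving 11384 genes. Values were log2(intensity + 16), quantile normalised within the 30 arrays. Normalised intensities in the text are these values turned back to the linear scale. limma 3.58.1 in R 4.3.3 fitted 10 group means (20 residual degrees of freedom) and a trend of variance on mean, and its two-sided p-values were adjusted over all genes by Benjamini-Hochberg and a threshold of 0.05. The fit was tested on simulated data. BaP 0.5 µM was fitted in the same way within the other 30 arrays. Adjusted p-values, SE and 95% intervals come from these fits. Values of further probe sets of a gene come from the same model fitted to all 45101 probe sets.

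Named genes were all tested members of the receptor lists, the 14 largest rises and 14 largest falls that passed without overlap, up to 4 called genes of each list or its largest uncalled member, Cdkn1a and Mdm2, and all genes called between BaP and MCA, up to 8 a side. Atoh8, Cxcl5, Il6, Irf1, Gbp2, Mx1 and the genes of the other observations were added after their values were seen. Same-numbered arrays of BaP and MCA deviated together (correlations 0.287, 0.318 and 0.551), which by the rule used pairs them, whereas BaP and DMSO had 0.091, 0.17 and 0.544 and count as unpaired. Across groups at 120 h the mean was 0.401 for the same number and -0.2 for other numbers. BaP and DMSO thus also shared deviations by number, which the main fit left in the spread. With the block 1040 genes differed instead of 182. What a shared number stands for is not in the labels. Alternatives covered the arrays in the fit, the replicate block, normalization, pseudocount, filter, probe set choice, variance trend and left-out arrays.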

Additional observations from a re-analysis of the deposited data

How the results depend on the processing

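The count of genes that differed between BaP and DMSO, 182, depended most on how the spread was estimated. It was 614 with all 60 arrays sharing 1 spread, 100 with the 15 arrays at 120 h, 25 with the 6 arrays alone and 1040 with the replicate number as a block. No gene values against DMSO are given from that block, since the numbers do not pair these groups by the rule used. All 15 arrays at 120 h were nonetheless closest to their own number. Chosen after seeing the data, a block within each time gave 1426 and leaving out replicate 3 of every group gave 65. Leaving out 1 array gave 94 to 143. Other normalization, pseudocounts, filters, the mean of all probe sets and no variance trend gave 123 to 195. Without DMSO replicate 1 the share of called genes that rose was 54.5% instead of 65.9%. The 10 genes between BaP and MCA became 47 with 60 arrays, 6 with the 15 arrays, 1 with the 6 arrays alone, 59 with the replicate block, 94 with the block within time, 5 with no filter, 3 to 6 without 1 array and 3 without replicate 3 of every group. Of 50 named genes called against DMSO, 28 kept the call without any 1 array, 16 lost it with the mean of all probe sets, and 12 kept it under all 20 alternatives, among them Cyp1a1, Cyp1b1, Chil1, Postn and AF067061. No named gene that was called changed direction under these alternatives. Uncalled genes near 0 did: with the mean of all probe sets Cdkn1a was -0.23 and Mdm2 -0.0717, and without replicate 3 of every group Esam was -0.21. Leaving out 1 array gave -0.0787 to 0.17 for Cdkn1a, -0.0056 to 0.0325 for Mdm2, -0.35 to 0.0988 for Krt8, -0.15 to 0.0059 for Ahr and -0.18 to 0.35 for Esam. The causes were not tested. Genes near background have understated folds, and 3 arrays a group limit small changes.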

Other observations

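Several called genes outside the lists fell into families, which were picked after their values were seen and carry no test as groups. Over all genes 1.05% rose and 0.545% fell. Of 5 tested complement genes 3 rose: the serine protease C1s1 from 6290, 6677 and 6704 in DMSO to 9057, 9311 and 10338 with BaP (0.54 ± 0.14), C1ra by 0.50 ± 0.11 and Masp1 by 0.59 ± 0.13. C2 (0.75 ± 0.53) and Masp2 (-0.15 ± 0.31) did not pass. Of 15 semaphorins, secreted and membrane guidance cues, Sema3f (0.87 ± 0.23), Sema6d (0.67 ± 0.12) and Sema3c (0.65 ± 0.16) rose, with none called lower and a family median of 0.03. Slit2, a guidance cue that binds Robo receptors, rose by 0.56 ± 0.12, and Efnb2, an ephrin, by 0.64 ± 0.12. The platelet-derived growth factors Pdgfb (0.83 ± 0.20) and Pdgfc (0.68 ± 0.15) rose, and Pdgfa did not pass (0.32 ± 0.21). Id4, an inhibitor of helix-loop-helix factors, read 207, 211 and 248 in DMSO and 486, 416 and 449 with BaP (0.97 ± 0.11, adjusted p = 3.59e-06). Among other single genes, Edn1, the endothelin 1 precursor, rose by 0.96 ± 0.15, Thbd, thrombomodulin, by 0.90 ± 0.13 and Klf2, a flow-responsive transcription factor, by 0.97 ± 0.20, while 0 of 10 endothelial markers were above the array median.

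Among falling genes, interferon-inducible families outside the list were again present. Of 4 tested immunity-related GTPases, which attack the vacuoles of intracellular pathogens, Iigp1 (-0.54 ± 0.14), Irgm2 (-0.47 ± 0.12) and Igtp (-0.47 ± 0.09) fell, and Irgm1 did not pass (-0.36 ± 0.11). Of 3 schlafens, Slfn2 and Slfn8 (-0.76 ± 0.17) fell, and of all genes 0.545% did. Ifi27l2a fell from 4474, 4944 and 5154 to 2969, 2473 and 2755 (-0.83 ± 0.14), Rtp4 by 0.65 on the log2 scale and Eif2ak2, the RNA-activated kinase that blocks translation, from 1686, 1895 and 1437 to 1027, 939 and 1186 (-0.66 ± 0.13). In each of these genes every BaP array lay below every control. Ezh2, the Polycomb methyltransferase, differed by -0.49 ± 0.11 and Kif20b, a kinesin of late cytokinesis, by -0.72 ± 0.14, both past the threshold.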
